A study of Mus musculus with 18 samples.

Results

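The nuclear genes of oxidative phosphorylation are described here in cholangiocytes, the lining epithelium of bile ducts, of PLD mice, a model of polycystic liver disease, where ducts become cysts, and of wild-type (WT) mice. They were taken by symbol: protein-coding genes outside the mitochondrial chromosome whose names begin with Ndufa, Ndufb, Ndufc, Ndufs, Ndufv, Uqcr, Cox4i, Cox5, Cox6, Cox7, Cox8 or Atp5, plus Sdha, Sdhb, Sdhc and Sdhd, without pseudogenes and without the assembly factors named Ndufaf. This gave 86 genes of 55401 in the count tables, of which 21897 were protein-coding: 38 of complex I, 4 of complex II, 8 of complex III, 18 of complex IV and 18 of complex V. Ndufa4 and its relative Ndufa4l2 stand with complex I by their symbols, although the NDUFA4 protein is now placed in complex IV.

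RNA was measured in 18 libraries of poly(A) RNA, 3 in each of 6 groups. The groups were PLD mice treated with CPTH6 and PLD mice treated with ML324, whose titles give 3 months, PLD and WT mice 2 months after tamoxifen, and PLD and WT mice 1 month after tamoxifen. Tamoxifen induction was common to the untreated groups of both genotypes; the labels name neither the gene inactivated in PLD mice nor the Cre driver, and give no strain, age, dose or untreated PLD group at 3 months. CPTH6 inhibits histone acetyltransferases of the GCN5 (Kat2a) family, and ML324 inhibits histone demethylases of the KDM4 family. Cells came from minced and digested biliary trees and were captured with beads against EpCAM. The labels do not say whether replicates are separate animals, so p-values refer to the spread among these libraries, part of which may be technical.

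Oxidative phosphorylation is the process by which the inner mitochondrial membrane turns the energy of NADH and succinate into ATP. Complex I takes electrons from NADH and complex II from succinate, complex III passes them from ubiquinol to cytochrome c, complex IV hands them to oxygen, and complex V, the ATP synthase, uses the proton gradient that complexes I, III and IV build. Most subunits are encoded in the nucleus and a few in mitochondrial DNA (mtDNA). Many of the nuclear genes are known targets of the factors NRF1, GABP, YY1 and the oestrogen-related receptors, helped by the PGC-1 coactivators.

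Total counts per library ran from 16345740 to 29277311. Cholangiocyte markers were detected in every library, 12 of 12, and their summed level averaged 29600 CPM (counts scaled to library size) with CPTH6, 26400 with ML324, 20600 in PLD and 5320 in WT at 2 months, and 15500 in PLD and 8020 in WT at 1 month. Markers of other cells were also present: the 10 endothelial markers summed to 745 CPM in PLD and 7790 in WT at 2 months, and the 10 pericyte and smooth muscle markers to 801 and 4720. At 1 month the same lists gave 3040 CPM in PLD and 3310 in WT for endothelium, and 2820 in PLD and 7820 in WT for pericytes. The 10 stellate cell and fibroblast markers summed to 364 CPM with CPTH6, 511 with ML324, 5430 in PLD and 8190 in WT at 2 months, and 10800 in PLD and 10000 in WT at 1 month. None of these endothelial, pericyte or fibroblast markers was at 0 in any library. WT replicate 3 at 1 month stood apart from the other WT libraries of that month, with 2360 CPM of fibroblast markers against 12800 and 14800. WT replicate 1 at 2 months had counts in 40039 genes, against 22780 to 30332 in the other libraries. In bulk RNA, fewer cells of a type and less RNA per cell cannot be told apart, and the part these mixtures play in the results was not tested except where stated.

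Promoter windows of 300 bases, from 250 before to 50 after the annotated start, were found in RefSeq (GRCm38.p6) for 69 of the 86 genes. Each was searched on both strands for GCGCATGC (the core of the NRF1 motif), CCGGAAGT (an ETS motif, the kind bound by GABP), AAGATGGCG (a YY1 motif) and TCAAGGTCA (the motif of oestrogen-related receptors). The NRF1 letters were found in 10 of the 69, or 14.5%, against 3.93% of the promoters of 17491 protein-coding genes. YY1 letters were found in 7 (10.1%, against 2.14%), ETS letters in 5 (7.25%, against 5.69%) and the receptor letters in 2 (2.9%, against 0.377%). In all, 23 of the 69 held at least 1 of these motifs; GCGCATGC and its reverse complement overlap each other in the longer palindrome that Atp5g2 carries. A match describes these letters in this window and shows no binding.

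The 5 stretches that follow are 100 bases each, written 5′ to 3′ on the gene's own strand with the motif in capitals. They belong to genes described below whose PLD to WT difference changed between the months, and each shows where 1 of the 4 motifs lies relative to the start.
Ndufa6, chr15:82354321-82354420, minus strand, NRF1 motif beginning 83 bases before the start: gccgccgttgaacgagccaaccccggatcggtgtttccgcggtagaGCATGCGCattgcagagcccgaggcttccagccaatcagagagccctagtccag
Ndufs7, chr10:80249399-80249498, plus strand, YY1 motif beginning 24 bases after the start: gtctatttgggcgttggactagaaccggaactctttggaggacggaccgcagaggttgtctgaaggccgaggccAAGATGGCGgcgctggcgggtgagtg
Sdhd, chr9:50603800-50603899, minus strand, receptor motif beginning 36 bases after the start: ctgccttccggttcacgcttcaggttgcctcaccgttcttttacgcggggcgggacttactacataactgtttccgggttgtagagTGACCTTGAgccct
Uqcrh, chr4:116075028-116075127, minus strand, ETS motif beginning 11 bases before the start: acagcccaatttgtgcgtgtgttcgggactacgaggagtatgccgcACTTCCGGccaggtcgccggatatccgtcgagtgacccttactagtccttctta
Atp5g2, chr15:102671036-102671135, minus strand, NRF1 palindrome beginning 42 bases before the start: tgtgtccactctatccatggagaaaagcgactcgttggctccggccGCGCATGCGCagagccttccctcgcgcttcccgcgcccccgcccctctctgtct

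Per length of transcript (TPM), the most abundant of these genes over the 18 libraries were Cox6a1, a complex IV subunit, at 835 TPM, Atp5a1, the alpha subunit of the ATP synthase, at 643, Cox8a, a small complex IV subunit, at 643, Atp5b, the catalytic beta subunit, at 558, and Cox4i1, the ubiquitous form of COX4, at 503. The median gene of complex III stood at 194 TPM and that of complex I at 78.2. Complex I held the largest number of genes but 24.8% of the summed TPM of the 86 genes with CPTH6, 26.2% with ML324, 27.3% in PLD and 31.9% in WT at 2 months, and 28.6% in PLD and 30.0% in WT at 1 month. Complex III held 12.8% in PLD and 11.3% in WT at 2 months, and complex IV 33.0% with CPTH6, 31.5% with ML324, 29.9% in PLD and 28.7% in WT at 2 months. At the 2-month stage the ranges of PLD and WT did not overlap for complexes I, III, IV and V, complex I being lower in PLD and the other 3 higher. Shares of one sum are not independent of each other. The complex I list, with 3116 TPM in PLD and 3446 in WT, includes Ndufa4l2 and Ndufa4. Ndufa4l2 had 22.9 TPM in PLD and 117.8 in WT, and Ndufa4 had 84.0 and 164.5. The share of complex I without these genes was not computed. Complex II took 4.87% in PLD and 4.84% in WT.

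**Figure D1:**
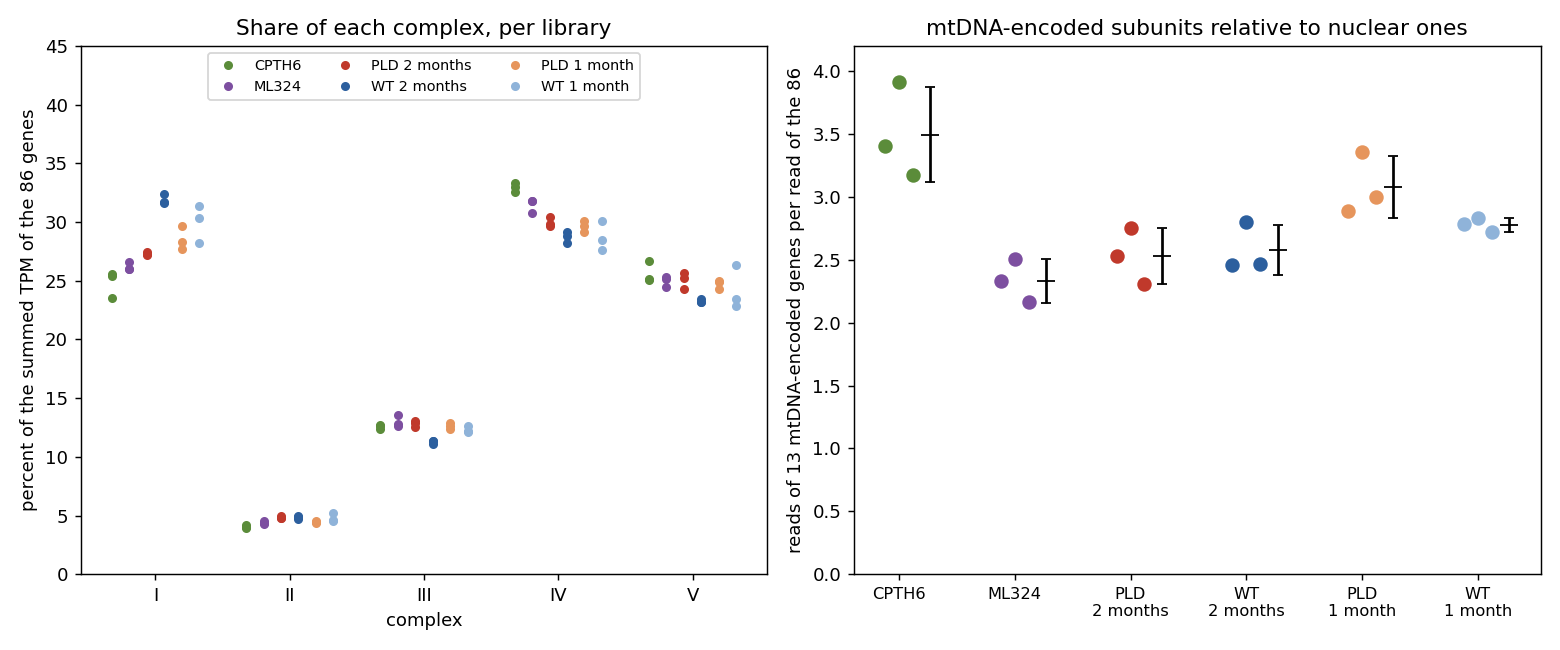
Left, the percent of the summed TPM of the 86 nuclear genes held by each complex, 1 point per library, for CPTH6, ML324, PLD and WT at 2 months and PLD and WT at 1 month. Right, reads of the 13 mtDNA-encoded genes per read of the 86 nuclear genes, with mean and SD of 3 libraries beside the points. Complex I held 27.3% in PLD and 31.9% in WT at 2 months, and the ratio on the right averaged 3.50 with CPTH6.

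Several muscle and testis isoforms had few counts. Cox6a2, the muscle form of COX6A, had 0 to 7 counts in a library, Cox7b2, a testis form, had counts only in WT at 2 months (4 and 1), and Cox8c had 1 count in each of 2 WT libraries. Cox8b, the muscle form of COX8, had 0 to 26 counts. A second gene model named Atp5o, which lies wholly inside exons of its neighbours, had no count in any library; 3 counts in the shallowest library correspond to 0.184 CPM. These 5 genes aside, 81 genes averaged at least 1 CPM. Among those 81, the highest group mean was with ML324 in 41 and with CPTH6 in 21, and the lowest was in WT at 2 months for 42. The ML324 libraries were uneven, with 5607, 6188 and 7283 CPM summed over the 86 genes, against 6142, 6338 and 6561 with CPTH6.

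At 2 months after tamoxifen, the PLD libraries had higher CPM than the WT libraries for a part of these genes. Of 82 genes tested, 30 rose and 5 fell by edgeR's quasi-likelihood test (adjusted p under 0.05 over all 17749 genes of the fit). Over all genes 19.7% rose and 20.3% fell, so that 36.6% of the tested members rose, more than the general share, and 6.1% fell, fewer than the general share. The median log2 change of the members was 0.18, against -0.03 over all genes. By complex, 5 of 8 genes of complex III rose, 9 of 17 of complex V, 6 of 15 of complex IV with 1 that fell, 9 of 38 of complex I with 4 that fell, and 1 of 4 of complex II. Summed over the 86 genes, the CPM were 5680 to 5988 in PLD and 4472 to 4996 in WT, without overlap, whereas the summed TPM, per length and without TMM scaling, were 10570 to 11990 in PLD and 10490 to 11290 in WT and overlapped. Of the 35 calls, 12 held in every alternative setting run and 6 were lost in 7 or more of the 14 (Ndufs5, Cox6b1, Cox7a2l, Atp5b, Atp5g1 and Atp5g3). Leaving out WT replicate 1 at 2 months brought the calls from 35 down to 20, and leaving out both WT libraries that stood apart gave 31. At the same time 10 of 12 cholangiocyte markers rose and 10 of 10 endothelial and 8 of 10 pericyte markers fell. Hepatocyte markers summed to 4340 CPM in PLD and 774 in WT, with 4 of 10 higher, Alb and Cyp2e1 among them, and 5 lower. Mesothelial markers summed to 1150 CPM in PLD and 33.3 in WT; Msln alone was higher, and the other 4 of 5 were lower. Striated muscle markers summed to 34.5 CPM in PLD and 155 in WT, with 4 of 9 tested lower. The part of these cells in the members' changes was not tested.

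**Figure D2:**
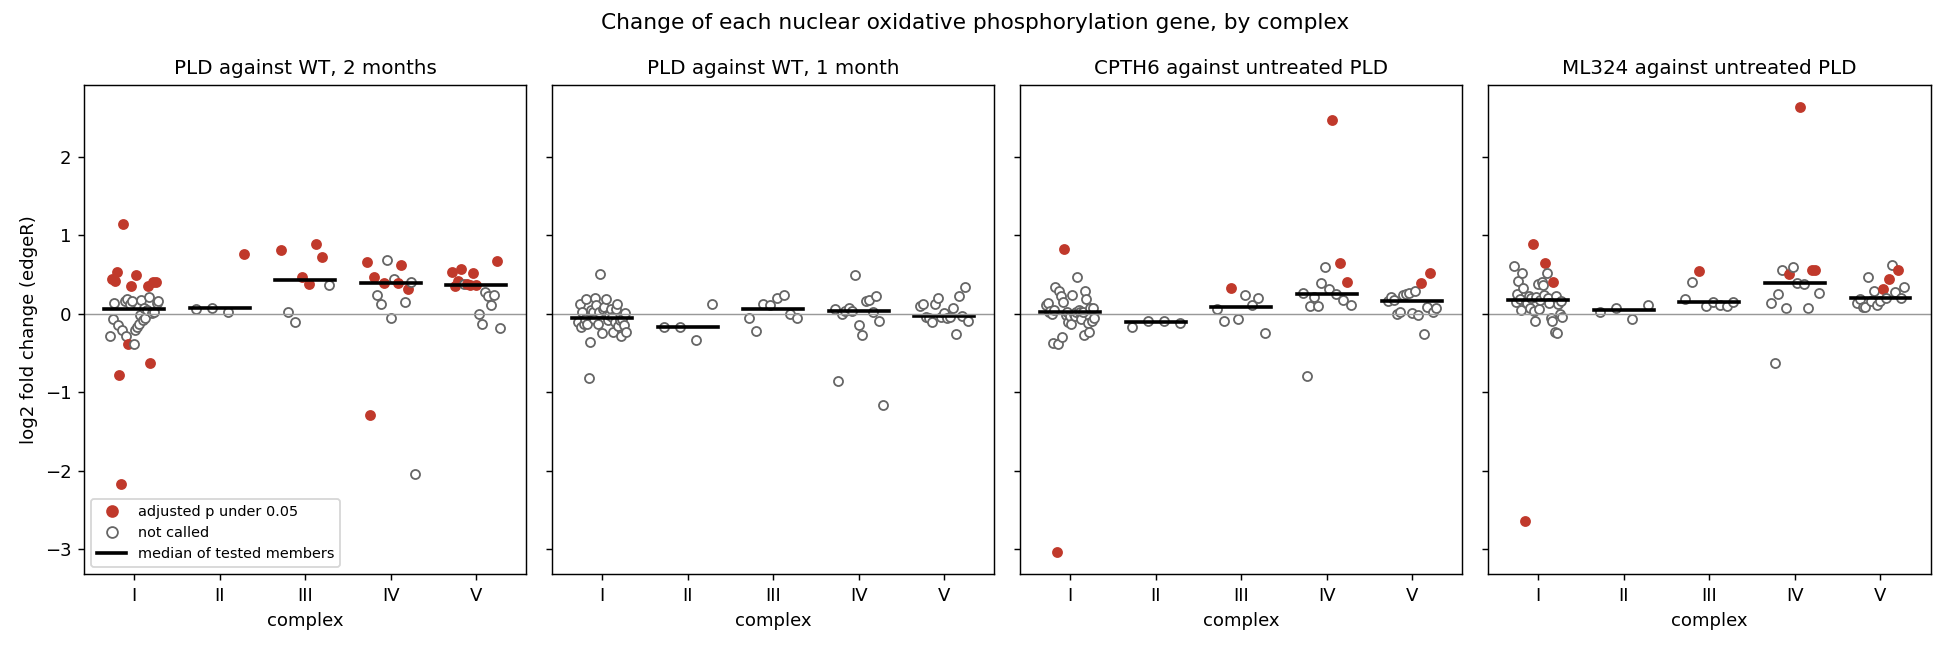
The log2 fold change of every tested gene (edgeR; vertical axis) by complex (horizontal axis), for PLD against WT at 2 months and at 1 month and for each compound against untreated PLD at 2 months. Filled points have an adjusted p under 0.05, open points do not, and black bars are medians; the medians at 2 months were 0.43 for complex III, 0.39 for complex IV and 0.37 for complex V, against 0.06 for complex I.

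In complex III the 5 genes that rose of 8 included the Rieske protein, both core proteins and 2 small subunits. Uqcrfs1, the Rieske iron-sulphur protein that takes electrons from ubiquinol, had 88.1, 95.4 and 88.4 CPM in PLD, against 48.6, 47.2 and 52.8 in WT, with every PLD library above every WT library (log2 fold change 0.89 ± 0.10, given here and below with its standard error and n = 3 libraries per group; adjusted p = 0.00018). The small subunit Uqcr10 had 47.7, 44.8 and 49.9 CPM in PLD, against 27.2, 27.5 and 27.1 in WT (0.82 ± 0.14, adjusted p = 0.00108). Uqcrh, the hinge protein at the cytochrome c1 site, whose promoter carries the ETS letters shown above, averaged 91.1 ± 12.9 CPM in PLD and 55.6 ± 3.01 in WT (SD, n = 3 each; 0.73 ± 0.11). The core proteins also rose: Uqcrc1 by 0.47 ± 0.10 and Uqcrc2 by 0.38 ± 0.09 on the log2 scale. Uqcrb, which lies at the ubiquinone site, Uqcrq and Uqcr11 did not pass the test. Uqcrb had 45.7, 43.8 and 48.2 CPM in PLD, against 46.4, 53.6 and 50.5 in WT. Cyc1, the cytochrome c1 subunit of this complex that the symbol rule leaves out, had 93.6, 84.6 and 89.5 CPM in PLD, against 65.1, 66.8 and 69.2 in WT (0.43 ± 0.08).

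In complex V, 9 of 17 tested genes rose, among them subunits of the catalytic head, the rotor and the stalk. Of the 5 subunits of the F1 head and central stalk, 4 rose: Atp5a1 (0.54 ± 0.14), Atp5b (0.35 ± 0.13), the gamma subunit Atp5c1 (0.42 ± 0.08) and the delta subunit Atp5d (0.57 ± 0.10). The call of Atp5b was lost in 9 of 14 alternative settings, and Atp5e, the epsilon subunit, had 55.6, 47.1 and 59.3 CPM in PLD, against 43.8, 45.8 and 36.1 in WT, and did not pass. Atp5a1, among the most abundant of the 86, had 689, 587 and 626 CPM in PLD, against 399, 442 and 487 in WT, without overlap. All 3 genes of the c-ring, Atp5g1, Atp5g2 and Atp5g3, which encode the same mature protein, passed the test, with changes of 0.37 ± 0.13, 0.52 ± 0.09 and 0.37 ± 0.11. Atp5g2 held its call in all 14 alternative settings, but Atp5g1 lost it in 10 and Atp5g3 in 7. Atp5g1 overlapped, with 56.6, 40.3 and 50.8 CPM in PLD, against 40.7, 37.7 and 37.3 in WT. Atp5o, the peripheral stalk subunit that confers oligomycin sensitivity, had 42.4, 41.9 and 43.6 CPM in PLD, against 26.6, 27 and 27.5 in WT (0.68 ± 0.09, adjusted p = 0.000329); 47.9% of its exon bases overlap other gene models, and counting without strand cannot part such reads. None of the 4 other membrane subunits passed the test. Atpif1, the inhibitor of the ATP synthase that the symbol rule leaves out, rose by 0.97 ± 0.16 (56.2, 44.1 and 57.9 CPM in PLD, against 26.2, 24.7 and 31.1 in WT).

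Complex I moved in both directions. Ndufa6, an accessory subunit that binds the mitochondrial acyl carrier protein (mm10 chr15:82350140-82354322, minus strand), had 75.8, 106 and 71.9 CPM in PLD, against 35.5, 36.4 and 43.9 in WT (1.14 ± 0.16, adjusted p = 0.000377). That was the largest rise among the 86 genes at this time. Of the 7 core subunits encoded in the nucleus 3 rose: Ndufv1, which holds the FMN that accepts electrons from NADH (0.40 ± 0.12), Ndufs3 (0.36 ± 0.10) and Ndufs7, which carries the last iron-sulphur cluster before ubiquinone (0.41 ± 0.09). Accessory subunits that rose were Ndufa2, Ndufb5, Ndufa10, Ndufa13 and Ndufb11, by 0.36 to 0.53; 30.0% of the exon bases of Ndufa13 overlap another gene model. Ndufs1, the large iron-sulphur subunit, had 53.6, 46.4 and 49.2 CPM in PLD, against 55.5, 51.3 and 50.0 in WT.

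The 4 genes of the complex I list that fell were Ndufa4l2, Ndufa4, Ndufs5 and Ndufab1. Ndufa4 had 42.4, 24.4 and 34.8 CPM in PLD, against 52.9, 61.9 and 62.1 in WT, without overlap (-0.78 ± 0.18, adjusted p = 0.00564). Ndufs5, an accessory subunit, had 20.2, 16.4 and 11.9 CPM in PLD, against 23.6, 26.2 and 26.2 in WT (-0.63 ± 0.23, adjusted p = 0.0447), and lost its call in 8 of 14 alternative settings. Ndufab1, the acyl carrier protein itself, had 19.4, 20.1 and 21.3 CPM in PLD, against 26.0, 27.8 and 26.7 in WT (-0.39 ± 0.12, adjusted p = 0.0212).

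In complex II, Sdhd, a membrane anchor of succinate dehydrogenase, rose alone, with 77.5, 77.0 and 73.7 CPM in PLD, against 43.4, 47.1 and 45.4 in WT (0.77 ± 0.10, adjusted p = 0.000291). Sdha, the flavoprotein, had 230, 234 and 218 CPM in PLD, against 211, 226 and 225 in WT, and the iron-sulphur subunit Sdhb 51.8, 50.2 and 53.0 CPM in PLD, against 48.5, 48.2 and 52.2 in WT; both overlapped. In complex IV, Cox4i1 had 252, 266 and 224 CPM in PLD, against 145, 156 and 175 in WT (0.66 ± 0.12, adjusted p = 0.00205). Cox5a, Cox6b1, Cox7a2 and Cox7c also rose, by 0.47 ± 0.11, 0.39 ± 0.13, 0.39 ± 0.12 and 0.32 ± 0.10. Cox7a2l, a factor that joins complexes III and IV into supercomplexes, passed the test (0.62 ± 0.22, adjusted p = 0.0418) although its groups overlapped, with 117, 162 and 81.0 CPM in PLD, against 75.1, 76.6 and 84.7 in WT.

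**Figure D3:**
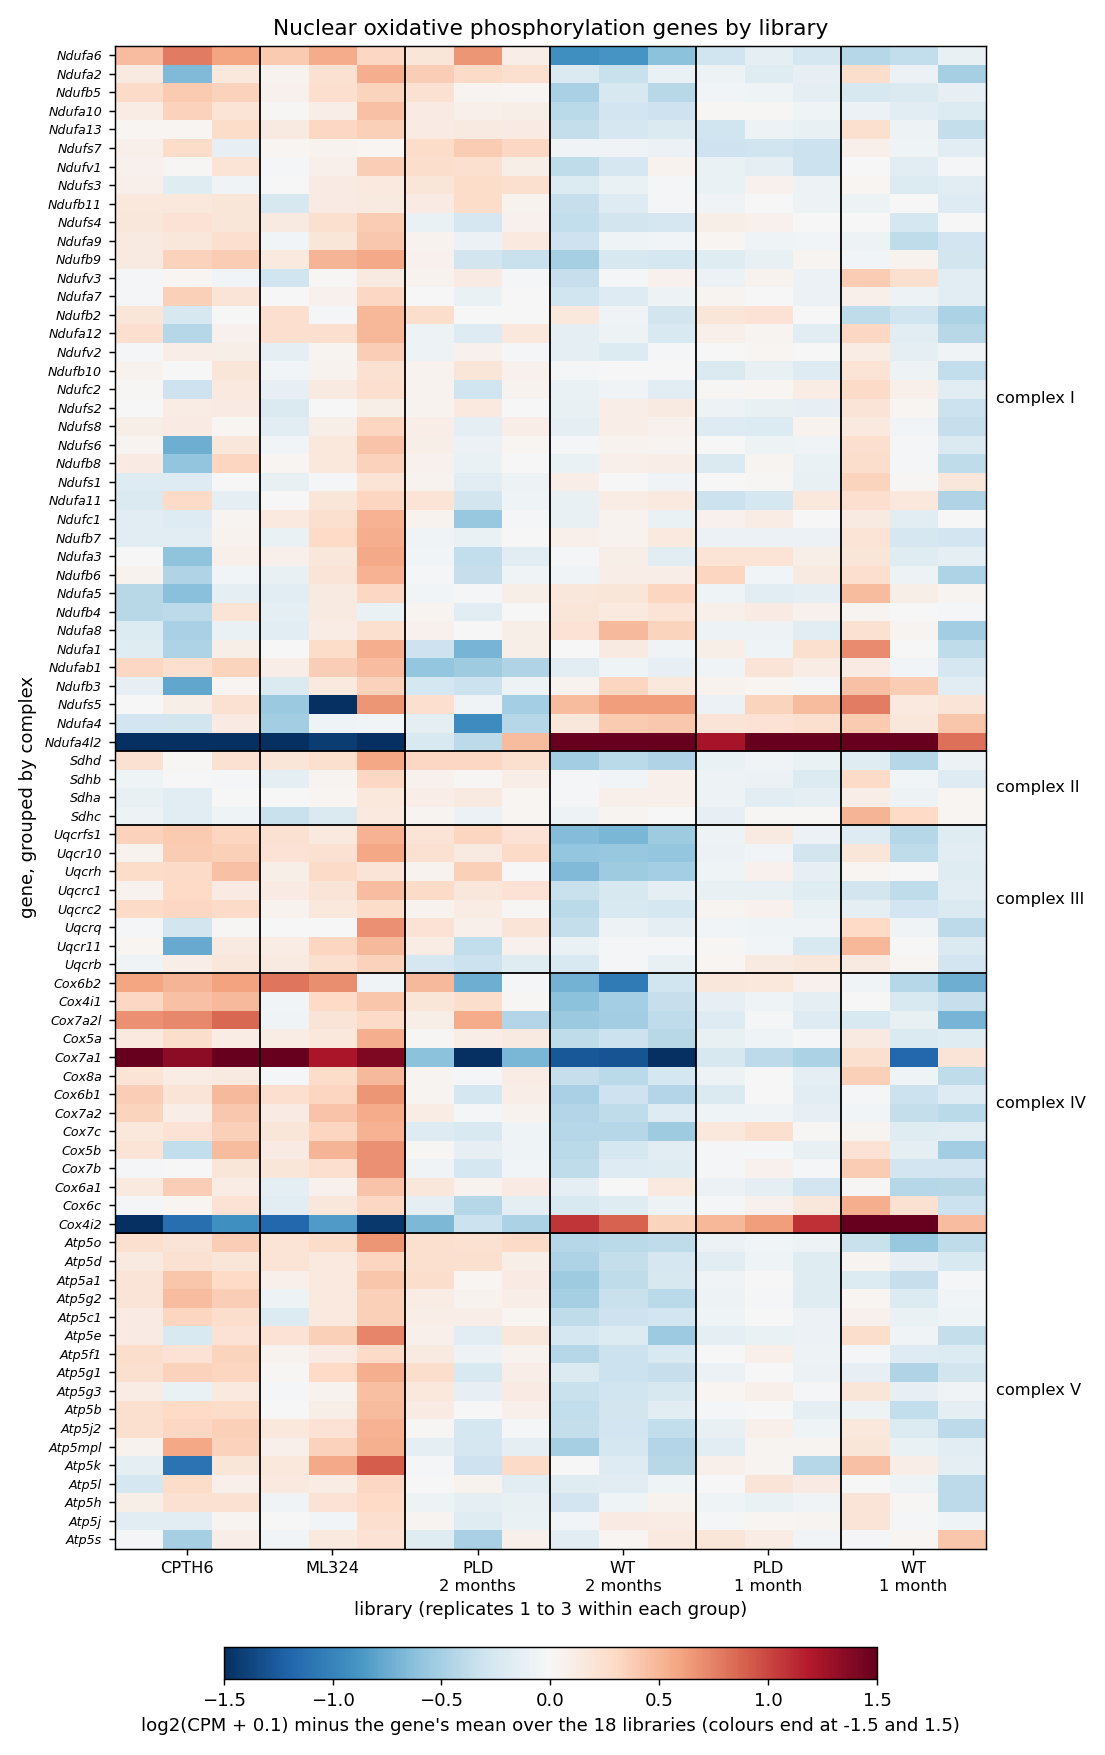
Each row is one of the 81 nuclear genes with a mean of at least 1 CPM, each column a library; colour is log2(CPM + 0.1) minus the gene's own mean over the 18 libraries. Rows are grouped by complex and ordered by the PLD to WT change at 2 months. Most genes of complexes III to V were blue in the 3 WT libraries at 2 months, and Ndufa4l2, Cox4i2 and Cox7a1 had the widest colour range.

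Ndufa4l2 and Cox4i2, isoforms of restricted expression, had the largest falls among the members called at 2 months. Ndufa4l2, known as a gene induced by low oxygen (mm10 chr10:127514967-127517154, plus strand), had 6.23, 5.53 and 10.2 CPM in PLD at 2 months, against 28.6, 39.5 and 32.4 in WT (-2.17 ± 0.51, adjusted p = 0.00679). Cox4i2, the form of COX4 linked to oxygen sensing (mm10 chr2:152754173-152765037, plus strand), had 2.09, 2.68 and 2.40 CPM in PLD, against 7.20, 6.35 and 4.28 in WT (-1.29 ± 0.38, adjusted p = 0.0198). Per length, Ndufa4l2 made up 21.6% ± 5.68 of the sum of Ndufa4l2 and Ndufa4 in PLD and 41.6% ± 2.63 in WT, and Cox4i2 1.87% ± 0.24 of both COX4 genes in PLD and 6.96% ± 2.19 in WT (SD, n = 3 each). The fall of Cox4i2 lost its call in 4 of 14 alternative settings. Across the 18 libraries the genes whose levels ranked most like Ndufa4l2 were Olfml2b, Zeb2 and Dpysl2 (Spearman's rho 0.992 for each), and those most like Cox4i2 were Pi15, Gas1 and Mgp (0.979, 0.973 and 0.973). The points share libraries and their mixtures of cells. The pericyte and smooth muscle markers summed to 675 to 949 CPM in PLD and 4310 to 4970 CPM in WT at this stage, and the fibroblast markers to 3220 to 7380 CPM in PLD and 5510 to 12200 in WT; the part of these cells in both falls was not tested.

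**Figure D4:**
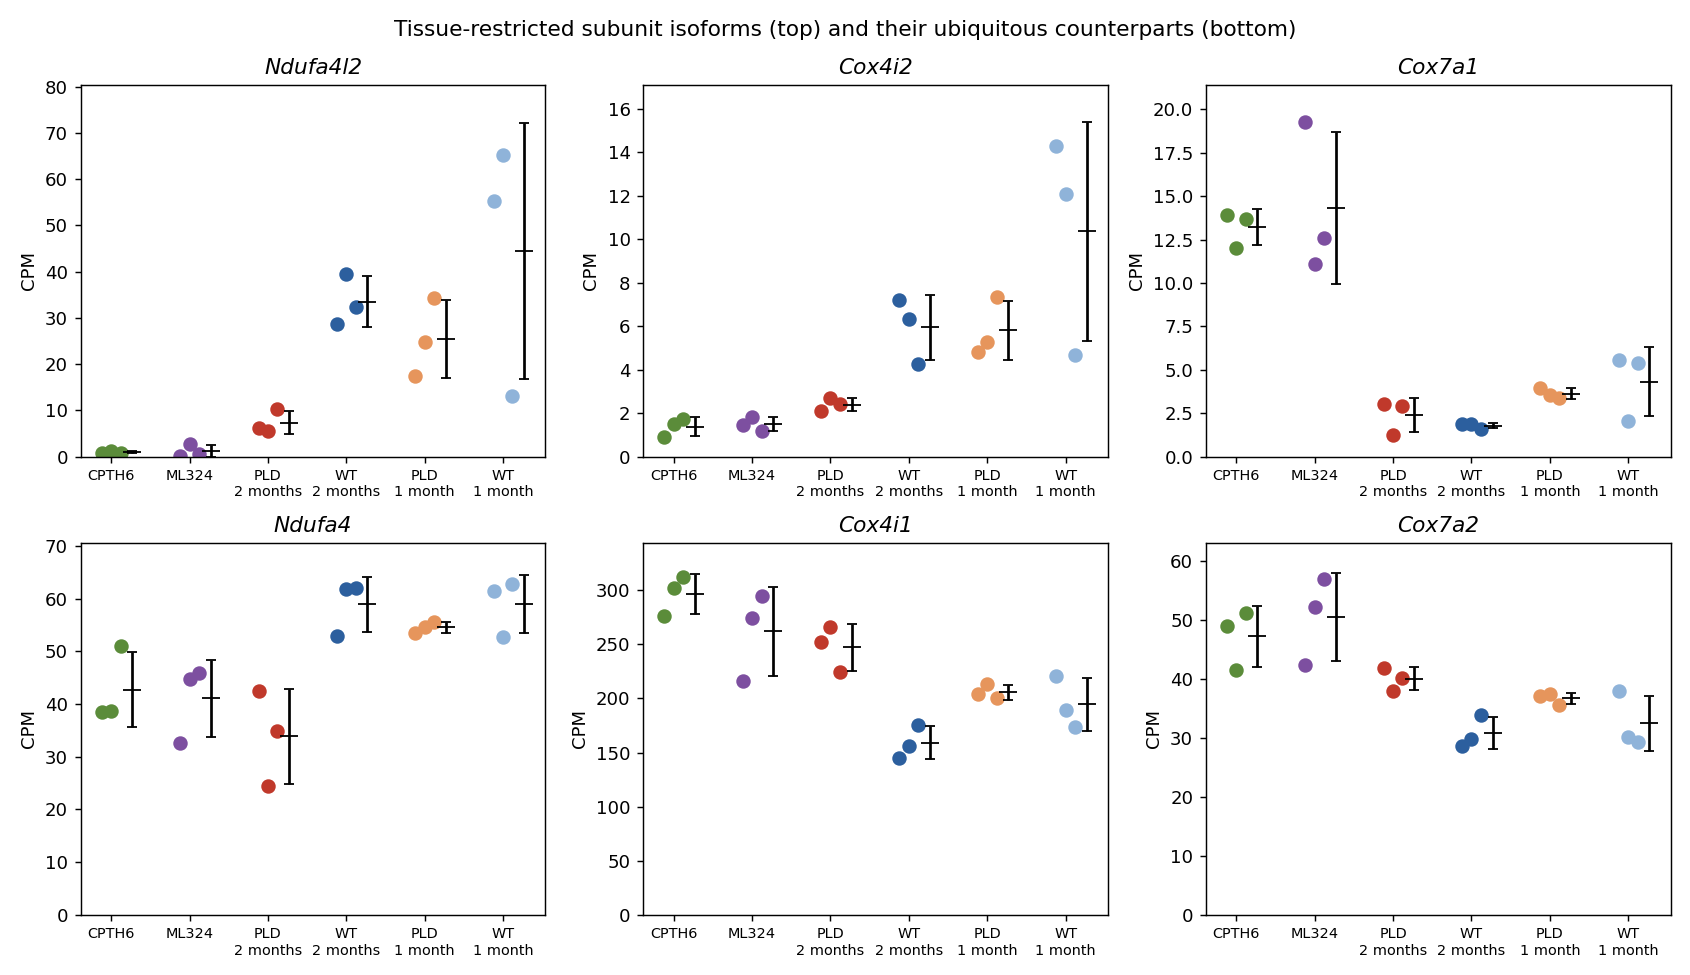
CPM of 3 isoforms of restricted expression (top) and their ubiquitous counterparts (bottom) in each library, with mean and SD of 3 libraries beside the points, for CPTH6, ML324, PLD and WT at 2 months, and PLD and WT at 1 month. Ndufa4l2 lay at 5.53 to 10.2 CPM in PLD and 28.6 to 39.5 in WT at 2 months, and Cox7a1 at 11.1 CPM or more in the 6 treated libraries, against 5.58 or less in the untreated ones.

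At 1 month no member was called between PLD and WT by edgeR's quasi-likelihood test: 0 of 82 were called higher and 0 lower, where over all genes 3.0% were higher and 2.02% lower. At an unadjusted p under 0.05 there were 9, DESeq2 called 2, and without WT replicate 3 edgeR called 7. The median change was -0.01, against -0.05 over all genes, and 38 of the 82 were positive. The nearest to the threshold was Atp5o, with 33.8, 34.9 and 33.9 CPM in PLD, against 28.5, 24.2 and 27.4 in WT (0.34 ± 0.09, adjusted p = 0.0526). Ndufs7 had 32.8, 33.1 and 32.7 CPM in PLD, against 43.0, 39.0 and 36.2 in WT, the opposite order to that at 2 months (-0.28 ± 0.09, adjusted p = 0.0828). Ndufa4l2 had 17.4, 24.8 and 34.2 CPM in PLD, against 55.3, 65.1 and 13 in WT, the last being the replicate that stood apart in its fibroblast markers. Cox4i2 had 4.81, 5.28 and 7.34 CPM in PLD, against 14.3, 12.1 and 4.69 in WT, the same WT replicate being lowest.

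Between the months, few members changed within PLD: 5 of 82 rose and 2 fell at 2 months against 1 month, where over all genes 4.38% rose and 5.23% fell. The 5 were Ndufs7 (49.4, 53.3 and 50.7 CPM at 2 months, against 32.8, 33.1 and 32.7 at 1 month; 0.66 ± 0.09, adjusted p = 0.00707), Ndufa6, Sdhd, Uqcrc1 and Atp5o, the last 4 by 0.34 to 0.59. Ndufab1 fell to 19.4, 20.1 and 21.3 CPM at 2 months, against 28, 33.2 and 31.5 at 1 month (-0.58 ± 0.12), and Ndufa4 fell by 0.66 on the log2 scale. Leaving out any 1 of the 6 PLD libraries reduced the 7 calls to 1 or 2. Ndufs7 kept its call in all 13 alternative settings. Endothelial markers fell too, 9 of 10, and pericyte markers, 6 of 10.

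Within WT no member was called between the months (0 higher and 0 lower of 82), as few genes were in all: 0.0113% rose and 0.0394% fell. There were 19 members at an unadjusted p under 0.05, DESeq2 called 4, all lower at 2 months, and edgeR called 2 without WT replicate 3 at 1 month. Most members were lower at 2 months than at 1 month, 64 of 82, with a median of -0.16, against -0.04 over all genes. The median was -0.31 in complex IV, -0.20 in complex V and -0.07 in complex I. Uqcrh had 52.1, 57.0 and 57.7 CPM at 2 months, against 84.0, 82.1 and 72.6 at 1 month (-0.53 ± 0.11, adjusted p = 0.0928).

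The difference between PLD and WT changed from 1 month to 2 months, as tested by the interaction of genotype and month, for 9 members, all toward PLD, and for none toward WT. Over all genes 2.55% changed toward PLD and 3.13% toward WT, against 11% and 0 of the 82. They were Ndufa6 and Ndufs7 of complex I, Sdhd of complex II, Uqcrfs1, Uqcrh and Uqcr10 of complex III, and Atp5c1, Atp5d and Atp5g2 of complex V. A change toward PLD can hold a rise in PLD, a fall in WT or both. Between the months only Ndufa6, Ndufs7 and Sdhd of these 9 were called within PLD, and none within WT. Uqcrfs1 changed by 0.28 in PLD and -0.37 in WT, and Atp5g2 by 0.20 and -0.36. In WT the changes were -0.53 for Uqcrh, -0.49 for Uqcr10, -0.515 for Ndufa6 and -0.03 for Ndufs7. Ndufa6 had an interaction of 1.10 ± 0.22 (adjusted p = 0.023): at 1 month it had 54.7, 60.6 and 55.8 CPM in PLD, against 49.8, 51.9 and 62.1 in WT, so the groups overlapped then and not at 2 months. For Sdhd the 1-month values were 58.3, 59.8 and 57.9 CPM in PLD, against 55.0, 46.1 and 58.4 in WT (0.64 ± 0.14, adjusted p = 0.0287). Uqcr10 had 38.3, 39.7 and 33.6 CPM in PLD at 1 month, against 46.3, 31.2 and 36.6 in WT (0.87 ± 0.19, adjusted p = 0.0296). All 9 had a promoter window, and 5 of them hold 1 of the 4 motifs, as shown above, where 23 of the 69 members with a window did. The share of all promoters with any of the 4 was not counted, and a link of motifs to the interaction was not tested.

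The interaction calls depended on single libraries. Leaving out 1 library gave 0 calls without WT replicate 2 at 2 months, PLD replicate 1 at 1 month or PLD replicate 3 at 1 month, and 2 to 5 without PLD replicate 1, 2 or 3 or WT replicate 1 or 3 at 2 months, PLD replicate 2 at 1 month or WT replicate 1 at 1 month. Without WT replicate 2 or 3 at 1 month the counts were 10 and 13, and without both WT libraries that stood apart 9, of which 7 were among the original 9. In the same contrast 9 of 10 endothelial markers changed toward WT.

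**Figure D5:**
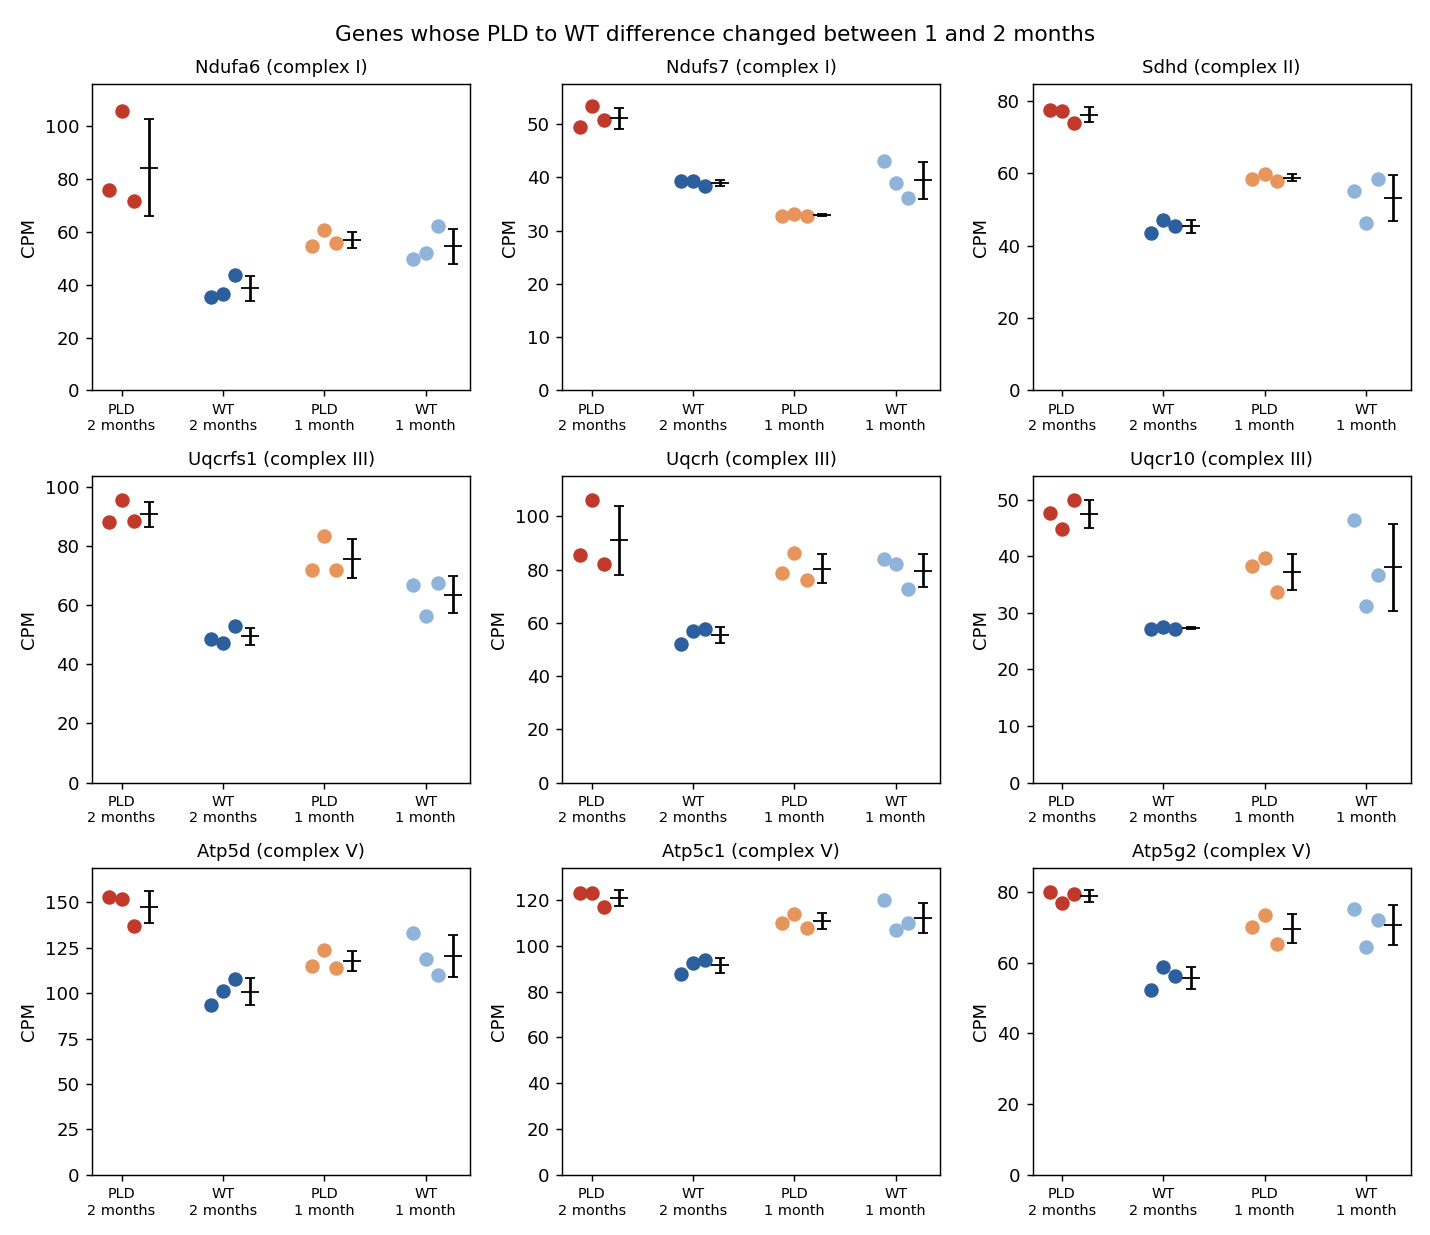
CPM of the 9 genes with an interaction of genotype and month in the 12 untreated libraries, with mean and SD of 3 libraries beside the points, for PLD and WT at 2 months and PLD and WT at 1 month. In each panel the 3 PLD libraries at 2 months lie above the 3 WT libraries at 2 months, whereas at 1 month the groups overlap in 7 genes, Ndufs7 lies the other way and Uqcrfs1 lies higher in PLD.

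CPTH6-treated PLD cells differed from untreated PLD cells at 2 months in 8 of 81 tested members: 7 rose and 1 fell, where over all genes 9.39% rose and 13.7% fell. ML324-treated cells differed in 12 of 81: 11 rose and 1 fell, where over all genes 7.96% rose and 11.4% fell. The rising share, 8.64% with CPTH6, was near that of all genes, and 13.6% with ML324 was above it. Called or not, 54 of the 81 were higher with CPTH6, with a median log2 change of 0.07, against -0.04 over all genes. With ML324 71 of the 81 were higher, with a median of 0.19, against -0.01 over all genes. The treated libraries come from 3 months and from a library set that the protocol describes separately, so compound, month and library set cannot be told apart. Both comparisons use the same untreated libraries, so their values are given side by side and are no support for each other.

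Cox7a1, the muscle form of COX7A (mm10 chr7:30184144-30186078, plus strand), had the largest rise. It had 13.9, 12 and 13.7 CPM with CPTH6 and 19.3, 11.1 and 12.6 with ML324, against 3.03, 1.23 and 2.89 in untreated PLD at 2 months (2.48 ± 0.33, adjusted p = 0.00118, and 2.64 ± 0.34, adjusted p = 0.00137). Per length it made up 33.1% ± 0.94 of the sum of Cox7a1 and Cox7a2 with CPTH6, 33.3% ± 9.80 with ML324 and 9.33% ± 3.38 in untreated PLD (SD, n = 3 each). Its counterpart Cox7a2 was not called, with 49.0, 41.5 and 51.3 CPM with CPTH6 and 42.4, 52.3 and 57.0 with ML324, against 41.9, 38.0 and 40.2 in untreated PLD. The 10 striated muscle markers summed to 23.7 CPM with CPTH6, 53.5 with ML324 and 34.5 in untreated PLD, and Mb was at 0 with ML324. Only 3 of the 10 were tested against untreated PLD: 1 was called higher with ML324, 0 with CPTH6, and 0 lower with either. The part of muscle cells in the rise of Cox7a1 was not tested. Over 18 libraries the genes whose levels ranked most like Cox7a1 were Ifrd1, Aff4 and Coq10b (rho 0.905, 0.903 and 0.897).

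Ndufa4l2 fell to 0.767, 1.14 and 0.751 CPM with CPTH6 and 0.166, 2.67 and 0.59 with ML324, against 6.23, 5.53 and 10.2 in untreated PLD (-3.04 ± 0.71, adjusted p = 0.0136, and -2.64 ± 0.70, adjusted p = 0.0288). The lowest treated value, 0.166 CPM in ML324 replicate 1, lies below the 0.184 CPM that 3 counts make in the shallowest library. The call was lost in 2 of 13 alternative settings with CPTH6 and in 4 of 13 with ML324. The highest treated value, in ML324 replicate 2, came from the library with the most fibroblast markers of its group. That library had 892 CPM of them, against 273 and 368 in the other ML324 libraries. In both treated groups 10 of 10 fibroblast markers were lower than in untreated PLD, and their part in this fall was not tested. Cox4i2 had 0.888, 1.49 and 1.74 CPM with CPTH6 and 1.44, 1.84 and 1.18 with ML324, against 2.09, 2.68 and 2.40 in untreated PLD, and passed in neither comparison.

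Ndufab1, which was lower in PLD than in WT at 2 months, stood at 36.2, 34.7 and 36.7 CPM with CPTH6 and 31.1, 37.6 and 40.0 with ML324, against 19.4, 20.1 and 21.3 in untreated PLD (0.83 ± 0.11, adjusted p = 0.00116, and 0.89 ± 0.11, adjusted p = 0.00135). Both treated groups lay above all untreated libraries at 2 months. Uqcrb of complex III rose by 0.33 ± 0.10 with CPTH6 and 0.55 ± 0.10 with ML324, and Cox7c of complex IV by 0.41 ± 0.11 and 0.56 ± 0.11. Among membrane subunits of the ATP synthase, Atp5mpl rose by 0.52 ± 0.15 with CPTH6 and 0.56 ± 0.15 with ML324, and Atp5j2 by 0.39 ± 0.12 and 0.45 ± 0.12. Cox7a2l was called with CPTH6 (178, 182 and 201 CPM with CPTH6, against 117, 162 and 81.0 in untreated PLD; 0.65 ± 0.21, adjusted p = 0.0497). Called with ML324 were also Ndufs4, Ndufb9, Cox6b1, Cox7b and the stalk subunit Atp5h, by 0.32 to 0.64. Ndufs5 was uneven with ML324, at 11.5, 1.25 and 27 CPM, against 20.2, 16.4 and 11.9 in untreated PLD. Leaving out single libraries gave 2 to 5 calls with CPTH6, each of the 6 libraries mattering, and 4 or 5 with ML324 when ML324 replicate 3 or any 1 untreated library was left out.

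Between the compounds no member was called by edgeR (0 higher and 0 lower of 81, CPTH6 against ML324), and no gene was: 0% of 15989 genes were called higher and 0% lower. At an unadjusted p under 0.05 there were 9 members, and DESeq2 called 1. Cox7a2l was nearest, with 178, 182 and 201 CPM with CPTH6, against 106, 126 and 134 with ML324 (0.57 ± 0.12, adjusted p = 0.235). The median change of members was -0.15, 61 of 81 being lower with CPTH6, against -0.02 over all genes. Over the edgeR settings run this median ran from -0.201 to -0.033. The summed CPM of the 86 genes overlapped, at 6142, 6338 and 6561 with CPTH6, against 5607, 6188 and 7283 with ML324.

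The subunits encoded in mtDNA were set beside the nuclear ones. Their 13 genes had 3.50 ± 0.38 counts per count of the 86 nuclear genes with CPTH6, 2.33 ± 0.17 with ML324, 2.53 ± 0.22 in PLD and 2.58 ± 0.20 in WT at 2 months, and 3.08 ± 0.25 in PLD and 2.78 ± 0.05 in WT at 1 month (SD, n = 3 each). The CPTH6 libraries, at 3.41, 3.91 and 3.17, lay above the ML324 libraries at 2.33, 2.51 and 2.16. They also lay above untreated PLD at 2 months, at 2.53, 2.75 and 2.31, but overlapped untreated PLD at 1 month, at 2.885, 3.357 and 3.0. Between the compounds 0 of 13 mtDNA genes were called, as 0% of all genes were. With CPTH6 8 of 12 tested mtDNA genes rose against untreated PLD and none fell, where 9.39% of all genes rose; mt-Co1, a catalytic subunit of complex IV, rose by 0.72 ± 0.16. With ML324 4 of 12 rose, where 7.96% of all genes did, namely mt-Co2, mt-Co3, mt-Atp6 and mt-Nd3, genes whose group means were 2.03 to 10.6 CPM, where those of mt-Co1 were 5712 to 12190 CPM. The low genes mt-Co2, mt-Co3, mt-Atp6 and mt-Nd3 were also among the 8 that rose with CPTH6. At 2 months 3 of 12 rose in PLD against WT, near the 19.7% of all genes. They were mt-Nd6 and, of the low genes, mt-Co2 and mt-Co3.

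Other genes of the pathway gave the following counts in PLD against WT at 2 months, where 19.7% of all genes rose and 20.3% fell. Of 16 genes of the citric acid cycle and pyruvate dehydrogenase 7 rose and none fell, of 16 import and outer membrane genes 6 and none, of 16 glycolysis genes 4 and none, and of 10 carriers and subunits outside the symbol rule 5 and none. Of 46 tested assembly factors 1 rose and 3 fell. The rising share of glycolysis genes was near that of all genes, and both shares of assembly factors lay below those of all genes. Suclg1, a succinyl-CoA ligase subunit, rose by 0.56 ± 0.11, Vdac1, the outer membrane pore, by 0.75 ± 0.11, and Gpi1, a glycolytic isomerase, by 0.68 ± 0.12. Tmem126b, a complex I assembly factor, fell by 0.70 on the log2 scale.

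Of the 13 regulators of mitochondrial biogenesis, 5 rose and 2 fell in PLD at 2 months, where 19.7% of all genes rose and 20.3% fell; the share that fell was near that of all genes. Esrra, the oestrogen-related receptor alpha, had 74.5, 84.6 and 70.6 CPM in PLD, against 34.9, 30.4 and 29.1 in WT (1.30 ± 0.18, adjusted p = 0.000478), and its difference grew between the months (interaction 1.17 ± 0.26). Ppargc1b, a PGC-1 coactivator, had 6.52, 10.5 and 5.68 CPM in PLD, against 5.23, 2.98 and 3.30 in WT at 2 months, and 2.78, 2.25 and 1.94 in PLD, against 6.81, 4.56 and 4.74 in WT at 1 month (interaction 2.22 ± 0.43, adjusted p = 0.0213). Gabpa, the DNA-binding subunit of GABP, fell by 0.34 and its partner Gabpb1 by 0.54 on the log2 scale. At 1 month Nrf1 (0.52 ± 0.11), Tfam, the mtDNA packaging and transcription factor (0.57 ± 0.11), and Pprc1 (0.47 ± 0.11) were higher in PLD by edgeR. Ppargc1b was lower then (-1.23 ± 0.31, adjusted p = 0.0459). At 2 months Nrf1 (0.02 ± 0.11) and Pprc1 (0.03 ± 0.11) were not called, and Tfam was higher by 0.35 ± 0.11. Of the nuclear subunit genes, edgeR called none at 1 month, and DESeq2 called 2. Against untreated PLD, 6 of the 13 regulators rose and 1 fell with CPTH6, where over all genes 9.39% rose and 13.7% fell. With ML324 3 rose and 1 fell, where over all genes 7.96% rose and 11.4% fell. With 1 gene in each comparison, the share of regulators that fell cannot be told apart from that of all genes. Pprc1 rose by 0.92 ± 0.13 with CPTH6 and 0.83 ± 0.13 with ML324, and Gabpb1 by 0.69 ± 0.12 with each. Ppargc1b fell by 1.27 on the log2 scale with CPTH6 (adjusted p = 0.0103), and Polrmt, the mitochondrial RNA polymerase, by 0.54 with ML324 (adjusted p = 0.0383).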

How the data were processed

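Levels were measured as counts of read pairs per gene in 18 libraries of poly(A) RNA. The deposited counts came from reads aligned with STAR 2.7.4a to mm10, handled with SAMtools 1.12 and counted with featureCounts 1.6.0, with DESeq2 1.26.0 also named, per the submitters' processing notes. The file headers record paired counting against GENCODE vM25 with neither a strand nor a multi-mapping option, so reads of antisense or overlapping genes cannot be parted and read pairs matching more than one place, as with processed pseudogenes or nuclear copies of mtDNA, are not counted. Symbols came from another GENCODE release, which named 55141 of 55401 genes; under it Atpif1 and Usmg5 fall outside the symbol rule.

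The counts were tested in R 4.3.3 with edgeR 4.0.16 (filterByExpr, TMM factors, quasi-likelihood F-test, Benjamini-Hochberg adjustment over all genes of a fit, threshold 0.05). The 12 untreated libraries shared one fit, as did CPTH6, ML324 and untreated PLD at 2 months; the compounds were also fitted alone. Standard errors are the log2 fold change over the square root of F. CPM uses TMM factors over the 18 libraries, and TPM divides by the exon length in the files. Total counts of 16345740 to 29277311 limit only genes of a few counts; such limits cover counting error only. DESeq2 1.42.0, other scalings, no filter, other sets of libraries, a replicate block and leaving out each library were tried. The test was checked on simulated counts. Genes named with changes are, per comparison and complex, up to 3 called with the largest rise and 3 with the largest fall at a mean of at least 1 CPM (or the 1 with the smallest p), fixed core subunits and isoform pairs, and up to 2 genes of each pathway list; others that were called are named to complete a count, after their values were seen. Genes alike in pattern are the 3 with the highest Spearman correlation at 10 CPM or more. The members and lists were chosen with earlier results of these data known.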

Additional observations from a re-analysis of the deposited data

Results flagged for a closer look

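The PLD to WT difference of 9 genes differed between 2 months and 1 month by the interaction term of edgeR's fit (adjusted p under 0.05 over all genes; log2 differences, 2 months minus 1 month). Ndufa6 differed by 1.10, Uqcr10 by 0.87 (0.865), Uqcrh by 0.73 (0.733), Ndufs7 by 0.69 (0.689), Uqcrfs1 by 0.65 (0.654), Sdhd by 0.64, Atp5d by 0.62 (0.617), Atp5g2 by 0.56 (0.559) and Atp5c1 by 0.46 (0.461). For Ndufs7 the 2-month difference was 0.41 and the 1-month difference -0.28. All 9 calls were lost when any of 3 libraries was left out, as given above.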

How the results depend on the processing

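Medians of the members kept their sign under every edgeR setting run except in PLD against WT at 1 month, where the median of -0.013 turned under 3 of 13 settings (-0.083 to 0.080); at 2 months it ran from 0.125 to 0.282, and with CPTH6 against untreated PLD from 0.003 to 0.168. Counts of called members moved more. With no low-count filter there were 16 calls in PLD against WT at 2 months (35 as reported), 3 for the interaction (9), 1 for time in WT (0) and 1 between the compounds (0). DESeq2 called 2 at 1 month (0), 12 between months in PLD (7), 4 between months in WT (0) and 1 between the compounds (0). Fitting only the groups compared gave 17 for time in PLD, and all 18 libraries in one fit gave 1 for time in WT. Without both WT libraries that stood apart, a setting chosen after the data were seen, there were 8 at 1 month. Leaving out 1 library gave 0 to 7 calls at 1 month, 20 to 33 at 2 months, 1 to 2 between months in PLD, 0 to 2 between months in WT, 0 to 13 for the interaction, 0 between the compounds, 2 to 5 for CPTH6 and 4 to 16 for ML324 against untreated PLD. Same-numbered replicates did not deviate together (correlations of -0.228 to 0.256), so the numbers were not taken to pair libraries; with a replicate block there were 2 calls for time in PLD, 3 for the interaction, 31 at 2 months, 8 for CPTH6 and 13 for ML324. Without length, CPM in place of TPM put 24.4% of the members' sum in complex I (28.1% in TPM), 7.23% in II (4.56%), 10.1% in III (12.4%), 18.5% in IV (30.2%) and 39.8% in V (24.7%). Of 80 single-gene results 27 held under every setting; of 1130 values 834 kept direction and call, 272 lost the call and 23 gained it, and 1 turned, Sdhd with ML324, an uncalled change of -0.029 without ML324 replicate 3, up to 0.206 without ML324 replicate 1. The cause of these moves was not tested.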
